A study of Mus musculus with 4 samples.

Results

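The genes followed here are 10 activity-regulated genes, Fos, Fosb, Jun, Junb, Egr1, Egr3, Nr4a1, Arc, Npas4 and Arnt2, measured as UMI counts in single cells. They were picked by symbol, and 10 of 10 were found among the 43348 genes of the deposited matrices. The cells were labelled with TdTomato by Nkx2.1-Cre, sorted from frontal cortex and hippocampus of mice at postnatal day 18 to 20, and sequenced in droplets. The study addresses what loss of the NMDA receptor subunit gene Grin1 does to interneurons from the medial ganglionic eminence (MGE). WT cortex and WT hippocampus libraries came from mice that carry Nkx2.1-Cre and the Ai14 reporter with Grin1 wt/wt. Null cortex and null hippocampus libraries came from littermates with the same driver and reporter and Grin1 fl/fl. Nkx2.1-Cre is active in progenitors before birth, so sorted oligodendrocytes of a null mouse may carry the same deletion as its interneurons, which was not tested. All cells were dissociated in buffers with a sodium channel blocker, an NMDA receptor blocker and a transcription inhibitor, so the levels are those left after that treatment, and the libraries analysed here hold no cells without it.

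Immediate early genes are transcribed within minutes of a stimulus without new protein synthesis, and in neurons calcium entry through NMDA receptors and voltage-gated channels is one such stimulus. Fos, Fosb, Jun and Junb encode subunits of the AP-1 transcription factor, Egr1 and Egr3 encode zinc-finger factors, Nr4a1 a nuclear receptor, and Arc a protein that acts at synapses. Growth factors, injury and tissue dissociation also induce many of these genes in glia, whereas Npas4 answers mainly to calcium in neurons and works with the constantly expressed partner Arnt2, which is not itself an immediate early gene. Oligodendrocytes, astrocytes and microglia that went through the same dissociation and sort are therefore given beside the interneurons for the members they hold.

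The 4 deposited matrices hold 10 libraries, told apart by barcode suffix: 6 WT and 4 null. Of 26987 cells, 26201 passed the filter. Replicates 1, 2 and 3 of WT cortex had medians of 7098, 2912 and 6499 UMIs per cell, and those of WT hippocampus 4411, 1479 and 5752. In null replicates 1 and 2 the medians were 6684 and 8786 in cortex and 8949 and 9763 in hippocampus. The WT libraries of replicate 2 were the shallowest and the null libraries of replicate 2 among the deepest. Whether depth plays a part in the levels of replicate 2 given below was not tested. Null cortex replicate 1 held 177 cells, against 401 to 4599 in each other library. Among 45 pairs of libraries 22 shared at least 1 barcode, 95 barcodes in all occurred in more than 1 library, and the largest overlap was 12 barcodes (0.312% of the smaller library, WT cortex and WT hippocampus replicate 2).

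Clusters were named by marker genes. The classes used most are SST interneurons (6240 cells), PVALB interneurons (2572), neurogliaform and CGE-like interneurons (NGFC, 2169), mature oligodendrocytes (OLIGO, 7910), newly formed oligodendrocytes (NFOL, 2726), oligodendrocyte precursors (OPC, 1393), glutamatergic neurons (GLUT, 1201), astrocytes (ASTRO, 469) and microglia (MICRO, 263). Libraries were not spread evenly over the clusters of a class. In the WT libraries of replicate 2, the largest share of SST cells lay in cluster 8 (32.9% in cortex, 62.7% in hippocampus), of PVALB cells in cluster 14 (50.3%, 62.1%), of NGFC cells in cluster 13 (59.3%, 99.2%) and of oligodendrocytes in cluster 1 (50.9%, 71.5%). In the other libraries the largest share lay in cluster 2, 6 or 9 (SST), 5 (PVALB), 4 (NGFC) and 0 or 3 (OLIGO). Null cortex replicate 2 was spread more widely, with 21.7% of SST cells in cluster 21 and 20.9% in cluster 27, and 41.6% of PVALB cells in cluster 5, 26.3% in 26 and 18.9% in 30.

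Grin1, the deleted gene, was lower in null than in WT libraries of every interneuron class without overlap. In SST cells replicates 1, 2 and 3 of WT cortex held 152, 260 and 234 CPM of it, and those of WT hippocampus 118, 181 and 160. Null replicates 1 and 2 had 37.4 and 28.0 CPM in cortex and 25.4 and 21.7 in hippocampus. In PVALB cells WT libraries spanned 111 to 212 CPM and null libraries 18.0 to 39.3. The log2 change in SST cells was -2.73 in cortex (SE 0.34, adjusted p = 0.0511) and -2.70 in hippocampus (SE 0.34, adjusted p = 0.0568), lower in 4 of 4 null libraries. In PVALB cells it was -2.55 (SE 0.38, adjusted p = 0.022) and -2.85 (SE 0.39, adjusted p = 0.029), and in hippocampal NGFC cells -2.51 (SE 0.41, adjusted p = 0.436). None of these passed the threshold on adjusted p used here, 0.01. With 2 null libraries per region, this edgeR fit without a replicate block thus did not call even a change of this size. DESeq2 and the replicate block called a few genes in some of these comparisons, as given below. The counts are tags from the gene's 3′ end, and the sources do not say where the tags lie relative to the removed exons. Oligodendrocytes held 0.662 to 8.24 CPM of Grin1 over the 10 libraries.

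Detection differed widely between members. Over the kept cells there were 18763 UMIs of Fos in 5695 cells, 1757 of Fosb in 1223 cells, 32200 of Jun in 12009 cells and 9143 of Junb in 4054 cells. Egr1 had 12324 UMIs in 5130 cells, Nr4a1 1428 in 1126, Arc 1998 in 1590, Npas4 1670 in 1103 and Arnt2 16446 in 7886. Egr3 had 16 UMIs in 16 cells, of which 3 were SST, 2 PVALB, 1 NGFC, 5 GLUT and 5 OLIGO cells, too few for any comparison.

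The 4 libraries of replicate 2 stood apart from the others, as counted, for 5 to 7 of the 10 members in each interneuron class and in oligodendrocytes. All 4 lay above all libraries of replicates 1 and 3 for 5 members in the SST class (Fos, Fosb, Jun, Egr1 and Npas4), where the same held for 275 of 12856 genes tested (2.14%). For Fosb the gap was 1.22 against 1.21 CPM, the latter from 1 UMI, so this member could overlap. The PVALB class had 6 such members (2.98% of genes), the NGFC class 7 (2.0%) and oligodendrocytes 5, namely Fos, Fosb, Jun, Junb and Egr1 (3.58%). Fosb could overlap in PVALB cells too, at 1.71 against 1.45 CPM. The same holds for Fosb in oligodendrocytes, at 0.275 CPM against 0, since a count of 0 allows up to 3 counts. Nr4a1 in PVALB cells could also overlap, at 5.54 against 5.21 CPM. So could Arc in PVALB cells (2.57 against 0.979) and NGFC cells (1.82 against 0). Arnt2 and Egr3 overlapped in all 4 classes. Replicate 2 holds both genotypes and both regions, so the comparisons below are given with replicate 2 and, where possible, without it. What sets replicate 2 apart was not tested.

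Fos in SST cells stood at 24.1, 216 and 38.5 CPM in replicates 1, 2 and 3 of WT cortex, at 13.7, 305 and 15.6 in WT hippocampus, at 24.2 and 43.0 in null cortex replicates 1 and 2 and at 3.28 and 173 in null hippocampus. In oligodendrocytes the same libraries held 0, 196 and 1.70 CPM, then 1.82, 296 and 1.01, then 0 and 27.5, and 0 and 159. Replicate 2 spanned 43.0 to 305 in SST cells and 27.5 to 296 in oligodendrocytes, against 3.28 to 38.5 and 0 to 1.82 in replicates 1 and 3. Fos was thus higher in SST cells than in oligodendrocytes in 10 of 10 libraries, but depth does not settle the order in null cortex replicate 1, where 3 counts in its 18 oligodendrocytes would exceed the SST level, and in null hippocampus replicate 1 it rests on 4 UMIs in SST cells. In the WT libraries of replicates 1 and 3 the margin was wide. In replicate 2 it was narrow in WT cortex (216 against 196), WT hippocampus (305 against 296) and null hippocampus (173 against 159). Orders in CPM, here and below, use library totals, and narrow ones may not hold under TMM scaling, used in the tests below. TMM lowers the median log2 of all genes, SST against oligodendrocytes, by 0.50 in WT cortex and 0.59 in WT hippocampus. PVALB cells ranged from 14.6 to 364 CPM (median 26.2) and NGFC cells from 7.23 to 456 (median 35.4). Astrocytes reached 1415, 1686, 308 and 1714 CPM in WT cortex, WT hippocampus, null cortex and null hippocampus replicate 2, and 0 to 60.0 in the others. Means over libraries were higher in microglia (1090 CPM), astrocytes (586) and glutamatergic neurons (292) than in NGFC, PVALB or SST cells (157, 92.2 and 85.6). Of the neighbours in that order, SST above oligodendrocytes (68.3) held in all 10 libraries as counted, and mural cells (999) above astrocytes in 3 of 3. Every other order of neighbours changed with the library.

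Fosb was nearly absent from interneurons outside replicate 2. SST cells held 0.771, 24.0 and 0.50 CPM in WT cortex, 1.05, 50.8 and 0 in WT hippocampus, 1.21 and 1.22 in null cortex and 0.821 and 15.2 in null hippocampus. Oligodendrocytes held 15.7, 33.8, 0.275 and 5.53 CPM in WT cortex, WT hippocampus, null cortex and null hippocampus replicate 2 and 0 in the 6 other libraries. The null cortex library of replicate 2 was the lowest of the 4 in both classes. Fosb spanned 0 to 102 CPM in astrocytes (median 0) and 0 to 258 in microglia (median 93.8).

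Jun stood higher in oligodendrocytes than in the interneuron classes. Oligodendrocytes held 100, 401 and 144 CPM in WT cortex, 134, 526 and 163 in WT hippocampus, 82.4 and 197 in null cortex and 163 and 381 in null hippocampus. SST cells held 52.4, 289 and 69.5, then 64.6, 473 and 83.0, then 24.2 and 102, and 69.0 and 236. The oligodendrocytes were higher than SST cells and than PVALB cells in 10 of 10 libraries, and than NGFC cells in 9 of 9. The medians over libraries were 163 CPM in oligodendrocytes, 94.7 in PVALB, 76.3 in SST and 49.2 in NGFC cells. Astrocytes spanned 21.5 to 1077 CPM (median 134) and microglia 79.9 to 2864 (median 873).

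Junb in SST cells stood at 16.8, 88.3 and 21.7 CPM in WT cortex, 15.2, 45.3 and 13.0 in WT hippocampus, 33.8 and 30.2 in null cortex and 5.75 and 81.1 in null hippocampus. Oligodendrocytes held 0, 25.2 and 1.36, then 0.993, 47.8 and 0.503, then 0 and 25.7, and 1.03 and 68.5. SST cells were higher in 9 of 10 libraries; the exception was WT hippocampus replicate 2, at 45.3 against 47.8 CPM. Microglia spanned 39.9 to 3494 CPM over 6 libraries and exceeded oligodendrocytes in 6 of 6, and glutamatergic neurons exceeded SST cells in 7 of 7. Summed over Fos, Fosb, Jun and Junb, SST cells held 94.0, 618 and 130 CPM in WT cortex and oligodendrocytes 100, 638 and 147. The AP-1 total was higher in oligodendrocytes in 9 of 10 libraries, the exception being null cortex replicate 1 (82.4 against 83.3 CPM), and Jun was its most abundant part in both classes of WT cortex.

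Egr1 in SST cells stood at 19.1, 189 and 32.2 CPM in WT cortex, 10.5, 224 and 6.23 in WT hippocampus, 49.5 and 59.5 in null cortex and 2.46 and 104 in null hippocampus. Oligodendrocytes held 1.62, 145 and 1.36, then 0.165, 228 and 0.503, then 0 and 39.3, and 0 and 88.7. SST cells exceeded PVALB cells in 10 of 10 libraries and oligodendrocytes in 9 of 10, the exception being WT hippocampus replicate 2. Over PVALB cells the margin was slight in null cortex replicate 2 (59.5 against 58.9). It was also slight in null hippocampus replicates 1 (2.46 against 2.16) and 2 (104 against 101), so the order is not settled there. Glutamatergic neurons, at 356, 485 and 227 CPM in WT cortex, exceeded SST and NGFC cells in 7 of 7 libraries. Astrocytes spanned 0 to 1361 CPM (median 26.7) and microglia 0 to 797 (median 111). Oligodendrocyte precursors reached 421 CPM in WT cortex and 498 in null hippocampus replicate 2, with 97.1 in WT cortex replicate 3 and 0 to 15.9 in the other libraries of replicates 1 and 3.

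Nr4a1 was low and spread over lineages in another way. In SST cells it stood at 6.16, 11.3 and 3.79 CPM in WT cortex, 3.15, 4.92 and 3.40 in WT hippocampus, 16.9 and 5.65 in null cortex and 2.46 and 14.1 in null hippocampus. Mature oligodendrocytes held 0 to 3.49 CPM (median 0.638) and newly formed oligodendrocytes 7.37 to 23.1 (median 19.2), higher in 9 of 9 libraries. Nr4a1 was thus higher in newly formed than in mature oligodendrocytes. Precursors had a mean of 23.7 CPM against 16.8 in newly formed oligodendrocytes, higher in 6 of 9 libraries. Levels in newly formed oligodendrocytes did not follow replicate 2: WT cortex held 22.9, 19.4 and 7.37 CPM. Glutamatergic neurons spanned 1.73 to 109 CPM.

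**Figure D1:**
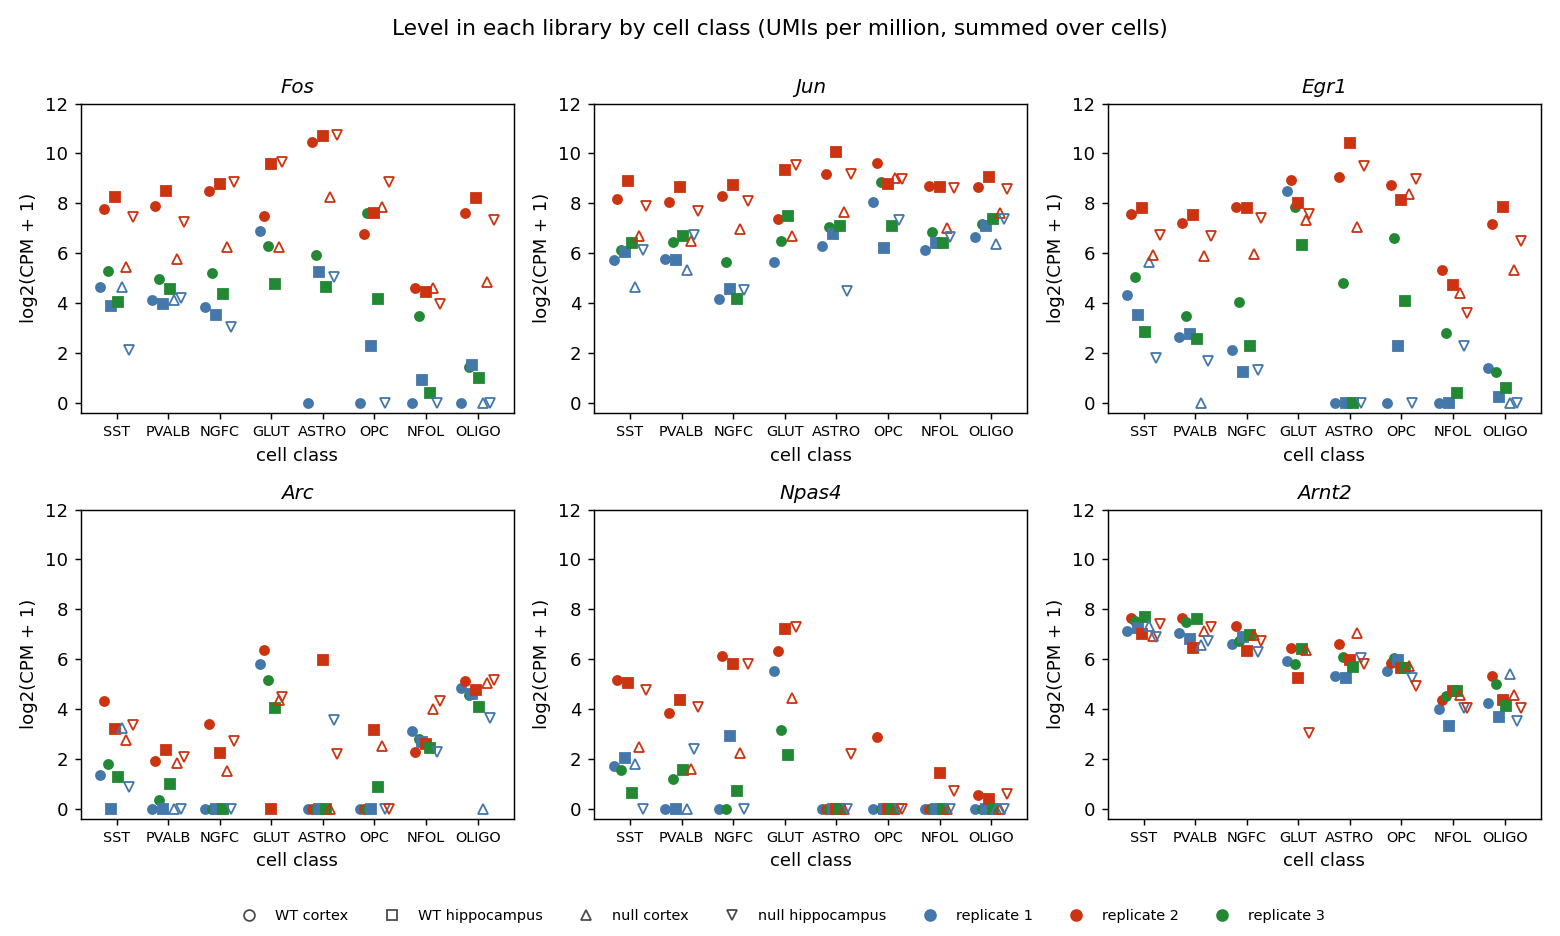
Level of 6 members (log2(CPM + 1) of summed UMIs) in 8 cell classes, 1 point per library with at least 10 cells of the class; color gives the replicate, shape the group, and open points are null libraries. Replicate 2 stands highest for Fos and Egr1 in interneurons and oligodendrocytes alike, Npas4 stays at or under 0.523 CPM in oligodendrocytes, and Arc in oligodendrocytes reaches 35.0 CPM.

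Arc stood higher in oligodendrocytes than in interneurons. Oligodendrocytes held 27.6, 33.7 and 22.5 CPM in WT cortex, 23.0, 26.5 and 15.9 in WT hippocampus, 0 and 31.6 in null cortex and 11.3 and 35.0 in null hippocampus; the library at 0 has 18 oligodendrocytes. SST cells held 1.54, 19.0 and 2.43, then 0, 8.19 and 1.42, then 8.46 and 5.76, and 0.821 and 9.11. Oligodendrocytes were higher than SST cells in 9 of 10 libraries, and than NGFC cells, newly formed oligodendrocytes and precursors in 9 of 9 each. Oligodendrocyte levels of replicate 2 overlapped those of the other libraries, unlike Fos or Egr1. Glutamatergic neurons spanned 0 to 81.9 CPM (median 21.4) and PVALB cells 0 to 4.15 (median 0.634). After thinning each cell to 1000 UMIs, 0 to 4.11% of oligodendrocytes and 0 to 1.66% of SST cells had an Arc UMI (unthinned 0 to 23.9% and 0 to 8.82%). For scale, Gad1, which oligodendrocytes should lack, was seen in 0 to 1.59% of thinned oligodendrocytes (unthinned 0 to 11.7%). Median depths over libraries were 1480 to 8250 UMIs in oligodendrocytes and 2075 to 14947 in SST cells.

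Npas4 was seen mainly in neurons. SST cells held 2.31, 34.7 and 1.93 CPM in WT cortex, 3.15, 31.7 and 0.566 in WT hippocampus, 2.42 and 4.54 in null cortex and 0 and 26.0 in null hippocampus. Oligodendrocytes held 1, 1 and 7 UMIs in WT cortex, WT hippocampus and null hippocampus replicate 2 (0.450, 0.291 and 0.523 CPM) and 0 UMIs in the 7 other libraries. In the same 3 libraries Fos in oligodendrocytes was 196, 296 and 159 CPM. NGFC cells reached 68.6, 54.2, 3.64 and 55.6 CPM in WT cortex, WT hippocampus, null cortex and null hippocampus replicate 2, and 0 to 6.61 elsewhere. Glutamatergic neurons spanned 3.46 to 154 CPM (median 44.5) and exceeded SST and NGFC cells in 7 of 7 libraries. Outside neurons and mature oligodendrocytes no class of a library held more than 2 Npas4 UMIs. Depth limits the small classes: microglia had 2 UMIs, a mean of 7.81 CPM, and endothelial cells 1 UMI, a mean of 6.63 CPM. The mean in PVALB cells was 5.80 CPM.

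Arnt2, the partner of Npas4, did not follow the other members. SST cells held 140, 201 and 184 CPM in WT cortex, 151, 129 and 208 in WT hippocampus, 161 and 120 in null cortex and 116 and 169 in null hippocampus. Oligodendrocytes held 17.9, 39.6 and 31.3, then 11.7, 19.5 and 16.4, then 41.2 and 22.4, and 10.3 and 15.5. SST cells were higher than oligodendrocytes in 10 of 10 libraries, and each interneuron class was higher than glutamatergic neurons in 7 of 7. The medians were 156 CPM in SST, 136 in PVALB, 106 in NGFC and 59.4 in glutamatergic cells, 60.9 in astrocytes, 49.7 in oligodendrocyte precursors and 18.7 in oligodendrocytes.

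**Figure D2:**
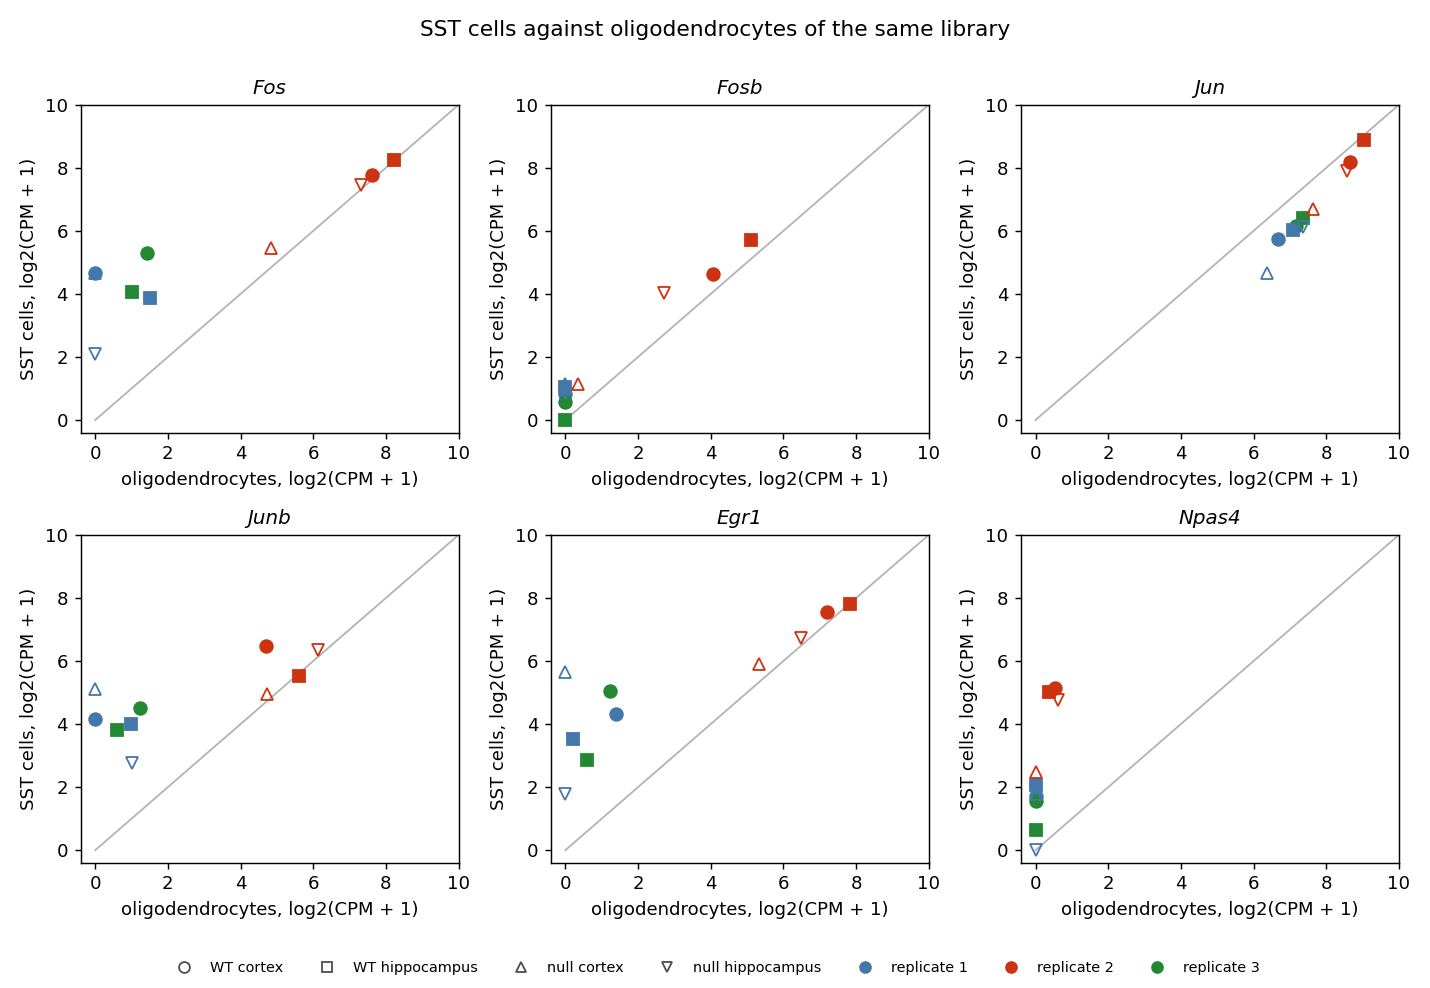
Level of 6 members in SST cells (vertical) against oligodendrocytes of the same library (horizontal), both as log2(CPM + 1) of summed UMIs, 1 point per library; the grey line marks equal levels. Libraries of replicate 2 lie to the right of the others for Fos and Egr1 and close to the line, Jun lies below the line in 10 of 10 libraries, and Npas4 stays at the left edge.

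Within clusters the difference between replicate 2 and the other libraries was present for Egr1 in every interneuron cluster, but for Fos and Npas4 only in part. The share of all genes with such a difference was not counted by cluster. For Egr1 all replicate 2 libraries lay above all others in 6 of 6 SST clusters, 4 of 4 PVALB, 2 of 2 NGFC and 5 of 7 OLIGO clusters with enough cells. For Fos this held in 1 of 6, 3 of 4, 2 of 2 and 5 of 7, and for Npas4 in 4 of 6, 2 of 4, 1 of 2 and 0 of 7. PVALB cluster 30 counts in each PVALB tally, but it sets only 1 library of replicate 2 (null cortex) against 1 other (WT cortex replicate 3). In OLIGO cluster 0, Fos stood at 317 CPM in WT cortex, 246 in null hippocampus and 30.1 in null cortex replicate 2, and at 2.98 or less in the others. OLIGO cluster 1, with most oligodendrocytes of the WT libraries of replicate 2, overlapped. There Fos stood at 169 CPM in WT cortex, 381 in WT hippocampus, 0 in null cortex and 33.4 in null hippocampus replicate 2. The other libraries reached 32.0 CPM, from 1 UMI. The heat-shock gene Hspa1a showed the same pattern: in oligodendrocytes it was 123, 195, 14.2 and 170 CPM in WT cortex, WT hippocampus, null cortex and null hippocampus replicate 2, against 2.71 to 8.24 elsewhere, and in SST cells 52.5, 74.3, 6.64 and 69.7, against 1.58 to 7.93, which overlap. Hspa1a was chosen after its values were seen. As for Fosb, the null cortex library was the lowest of the 4. Whether stress during dissociation accounts for the replicate was not tested.

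Interneurons were compared with oligodendrocytes of the same WT libraries, with each library as a block. In cortex 8131 of 13228 genes tested passed for the SST class (61.5%), 7836 of 12739 for PVALB (61.5%) and 5732 of 12725 for NGFC (45.0%). Among the 9 members tested 6, 7 and 5 passed; DESeq2 gave 6, 4 and 4. In hippocampus 8198 genes passed in SST (62.0%), 7171 in PVALB (56.3%) and 7228 in NGFC cells (56.8%), with 4 members in each and 5, 3 and 4 by DESeq2. The median change of members was 1.25 against 0.07 for all genes in cortex SST and 0.75 against 0.02 in hippocampus SST. Library-size scaling in place of TMM shifts the median of all genes by 0.50, 0.56 and 0.69 (SST, PVALB, NGFC) in cortex and 0.59, 0.67 and 0.70 in hippocampus. With it the share of higher genes among those passing goes from 53.4% to 69.2% in cortex SST and from 52.1% to 71.6% in hippocampus SST; among members 4 higher and 2 lower become 6 and 2 in cortex SST.

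Jun was lower in interneurons in all 6 comparisons: by log2 -1.31 (SE 0.21, adjusted p = 1.90e-06) in cortex SST and -1.30 (SE 0.21, adjusted p = 2.39e-06) in hippocampus SST, and most in NGFC cells, at -1.80 and -2.53. Library-size scaling loses the call for Jun in cortex NGFC, at -1.11 (adjusted p = 0.039). Arc was lower in all 6 as well, by -2.81 (SE 0.42, adjusted p = 9.24e-07) in cortex SST and -3.52 (SE 0.54, adjusted p = 1.30e-06) in hippocampus SST. Arnt2 was higher in all 6, by 2.1 (SE 0.19, adjusted p = 9.20e-11) and 2.78 (SE 0.20, adjusted p = 2.63e-13) in SST cells of cortex and hippocampus. Npas4 passed in all 6, but oligodendrocytes held 1 UMI per region. Its ratio was 69.6 in cortex SST (251 against 1 UMIs, 95% counting interval 12.4 to 2758) and 140 in hippocampus SST (66 against 1, 24.3 to 5624). These ratios rest on replicate 2, which holds 212 of the 251 and 58 of the 66 UMIs and the 1 UMI of oligodendrocytes in each region. Without it oligodendrocytes hold 0 and SST cells 0.566 to 3.15 CPM. Outside SST cells the Npas4 calls are fragile. DESeq2 loses those in cortex PVALB (3.38, adjusted p = 0.102) and cortex NGFC (3.29, adjusted p = 0.48). It also loses those in hippocampus PVALB (5.23, adjusted p = 0.0129) and hippocampus NGFC (6.25, adjusted p = 0.129). The edgeR changes were 4.24, 6.27, 5.12 and 6.58 in that order, so in hippocampus the change stayed about as large, with a larger SE. Leaving out WT cortex replicate 2 loses them in cortex PVALB (4.29, adjusted p = 0.0942) and cortex NGFC (0.00, with no SE). Leaving out WT hippocampus replicate 2 loses the call in hippocampus PVALB (4.58, adjusted p = 0.0428).

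The members that differ most between replicates changed side with the libraries used and with the processing. With all WT libraries, TMM and the filter on low counts, Fos did not pass in any class, at 1.25 (SE 0.53, adjusted p = 0.0354) in cortex SST and 0.75 (SE 0.53, adjusted p = 0.209) in hippocampus SST. In CPM, Fos was higher in SST cells in 6 of 6 WT libraries. For replicate 2 the margin was 216 against 196 CPM in cortex and 305 against 296 in hippocampus, so that order may not hold under TMM. With library-size scaling Fos passed in cortex SST (1.74, adjusted p = 0.00942), cortex PVALB (1.43, adjusted p = 0.00489) and hippocampus NGFC cells (1.56, adjusted p = 0.00694), and with no filter on low counts in cortex SST (1.45), PVALB (0.84) and NGFC (1.04) and hippocampus SST (0.85).

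With replicates 1 and 3 alone, a choice made after seeing the data, Fos passed in all 6: 4.48 (SE 0.53, adjusted p = 5.87e-06) in cortex SST and 2.74 (SE 0.44, adjusted p = 1.06e-04) in hippocampus SST, and 2.83 to 4.01 in PVALB and NGFC cells. Oligodendrocytes of those libraries hold 5 UMIs of Fos in cortex, so the size of the change there is loosely set. Without WT cortex replicate 2 as the one library left out, Fos in cortex SST was 4.49; it also passed without WT hippocampus replicate 1 (1.16, adjusted p = 0.00732) or replicate 2 (1.13, adjusted p = 5.33e-04). Without WT hippocampus replicate 2, Fos passed in hippocampus SST (2.75), PVALB (3.14) and NGFC cells (2.78). Without WT cortex replicate 2 it passed in cortex PVALB (4.02), and in NGFC cells (adjusted p = 1.92e-04). In cortex PVALB it also passed without any 1 of WT hippocampus replicates 1, 2 and 3 or null hippocampus replicate 1 (0.83 to 0.91), and in cortex NGFC without WT hippocampus replicate 2 (adjusted p = 0.00302).

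Calls for Egr1 and Junb also depended on the libraries. With all WT libraries Egr1 was 1.18 (SE 0.48, adjusted p = 0.0321) in cortex SST and 0.50 in hippocampus SST; with replicates 1 and 3 alone it passed at 3.65 (SE 0.47, adjusted p = 1.54e-05) and 3.87 (SE 0.61, adjusted p = 7.85e-05). In cortex SST it also passed without WT cortex replicate 2 (3.67) and without WT hippocampus replicate 1 (1.10) or 2 (1.09). It passed there with library-size scaling (1.67) and with no filter on low counts (1.37) as well. In PVALB and NGFC cells Egr1 passed in neither set, and with all WT libraries it was 0.08 and 0.38 in cortex and -0.58 and -0.28 in hippocampus. It passed with 1 library left out: without WT cortex replicate 2 in cortex PVALB (1.95, adjusted p = 0.00104) and without WT hippocampus replicate 2 in hippocampus PVALB (3.06, adjusted p = 0.00224) and NGFC cells (2.18, adjusted p = 0.00884). Junb passed with all libraries in cortex SST (2.14, SE 0.51, adjusted p = 4.50e-04) and cortex PVALB (1.89, SE 0.34, adjusted p = 2.04e-06), and with replicates 1 and 3 alone in all 6, at 3.04 to 4.05. Oligodendrocytes of replicates 1 and 3 held at most 1.36 CPM of Junb and 1.62 of Egr1, so without replicate 2 the size of both changes is loosely set. DESeq2 and library-size scaling each also call Junb in hippocampus SST (2.62 and 1.65), cortex NGFC (2.91 and 2.40) and hippocampus NGFC (2.60 and 1.82). With no filter on low counts it was called in the same comparisons, at 1.13, 1.71 and 1.13, and without integration in cortex NGFC (1.77). Leaving out WT hippocampus replicate 2 alone put Junb past the threshold in hippocampus SST (3.59), PVALB (3.05) and NGFC cells (3.74). In cortex NGFC leaving out WT cortex replicate 2 gave 3.67 and leaving out any 1 WT hippocampus library 1.70 to 1.73, all called, and in hippocampus NGFC Junb passed without WT cortex replicate 2 (1.29).

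Nr4a1 passed in cortex SST (2.70, SE 0.64, adjusted p = 4.70e-04) and PVALB (2.17, SE 0.70, adjusted p = 0.0051); without WT cortex replicate 2 it no longer did, at 1.94 (adjusted p = 0.0276) and 1.47 (adjusted p = 0.123), nor in PVALB without WT cortex replicate 1 (1.80, adjusted p = 0.0226), without null cortex replicate 1 (adjusted p = 0.0106), by DESeq2 (adjusted p = 0.0352), with sums of at least 20 cells (adjusted p = 0.0106) or with classes of single cells (adjusted p = 0.0287). Without WT hippocampus replicate 2 Nr4a1 passed in hippocampus SST (2.12, adjusted p = 0.00687) and NGFC cells (2.34, adjusted p = 0.00942). In NGFC cells it also passed without WT cortex replicate 2 in hippocampus (1.78, adjusted p = 0.0049) and without WT cortex replicate 3 in cortex (4.70, adjusted p = 0.00304), and in hippocampus with library-size scaling (2.36) or no filter on low counts (1.65). Fosb passed in cortex PVALB (1.23, SE 0.42, adjusted p = 0.00802) and NGFC cells (1.75, SE 0.50, adjusted p = 0.00543); both calls are fragile. Without WT cortex replicate 2 the change was 4.44 (adjusted p = 0.0589) in PVALB and 0.00 in NGFC. The PVALB call was also lost by DESeq2 (adjusted p = 0.699), with no filter on low counts, with sums of at least 20 cells, with stricter cells, with doublets removed, without integration, with classes of single cells and without WT cortex replicate 3 or null cortex replicate 1, at 1.10 to 1.18 outside DESeq2. The NGFC call was also lost by DESeq2 (adjusted p = 0.64), with stricter cells (adjusted p = 0.0174) and without null hippocampus replicate 2 (adjusted p = 0.0103). With library-size scaling Fosb also passed in hippocampus PVALB (1.27, adjusted p = 0.00964) and NGFC cells (1.33, adjusted p = 0.00599). Without replicate 2 the cells of both classes held few Fosb UMIs, so no fold is read from those values.

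**Figure D3:**
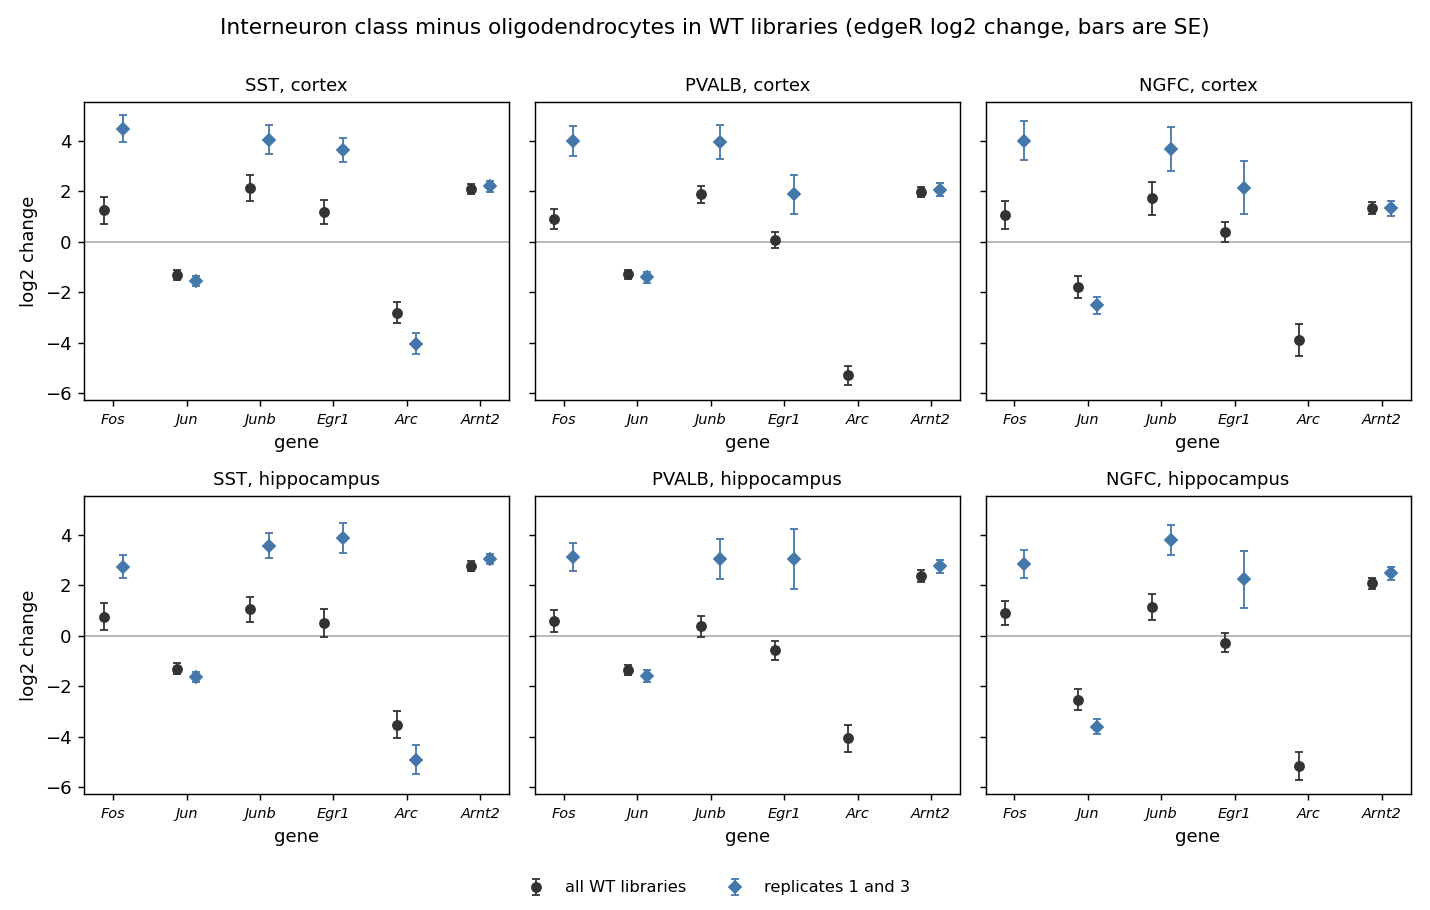
edgeR log2 change of 6 members, interneuron class minus oligodendrocytes of the same WT libraries, with all WT libraries (circles) and with replicates 1 and 3 alone (diamonds); bars are SE, and points with 3 or fewer UMIs in either class are left out. Fos goes from 1.25 to 4.48 in cortex SST when replicate 2 is left out, whereas Jun (-1.31 and -1.54) and Arnt2 (2.1 and 2.20) move little.

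Null and WT libraries were compared in each class and region. In SST cells 0 of 12856 genes passed in edgeR in either region (308 and 464 at unadjusted p under 0.05 in cortex and hippocampus; DESeq2 called 3 and 2), hence 0% and 0 of 9 members. In PVALB cells 0 of 9907 passed (337 and 339 unadjusted; DESeq2 11 and 1), in hippocampal NGFC cells 0 of 9670 (305; DESeq2 1) and in oligodendrocytes 0 of 10593 (158 and 164; DESeq2 0 and 0). With the replicate number as a block 3 genes passed in cortex PVALB cells, 2 in cortex and 3 in hippocampus oligodendrocytes and 0 in the others, with 0 members among them. Leaving out 1 library gave 0 to 10 genes in cortex PVALB cells and 0 in the other comparisons. NGFC cells in cortex had 1 null library with enough cells and were not tested. The changes of Fos in SST cells were -1.36 (SE 1.46) in cortex and -0.31 (SE 1.36) in hippocampus, and in oligodendrocytes -1.51 (SE 2.35) and -0.31 (SE 2.01). Npas4 in SST cells had -1.62 (SE 1.63) in cortex and 0.45 (SE 1.42) in hippocampus, and Egr1 -0.50 (SE 1.41) in cortex. These changes lie within the spread between replicates. Arnt2, with little spread, had -0.31 (SE 0.29) and -0.17 (SE 0.29) in SST cells. Over the members tested, 1 of 9 lay above 0 in cortex SST (median -0.50, all genes -0.01), 0 of 7 in cortex PVALB (-0.95, all genes -0.01) and 1 of 7 in cortex oligodendrocytes (-0.50, all genes -0.08). In hippocampus it was 4 of 9 in SST (-0.17), 2 of 7 in PVALB (-0.20), 5 of 8 in NGFC (0.33) and 2 of 7 in oligodendrocytes (-0.23). The members share libraries, so these tallies carry no p.

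The difference between regions in the genotype change was tested as an interaction: 0 genes passed in SST, PVALB or OLIGO cells (0%; 80, 100 and 60 at unadjusted p under 0.05 in edgeR; 0 by DESeq2 in each). For Fos in SST cells it was 1.05 (SE 1.96) and for Npas4 2.07 (SE 2.14). Over the members tested, 8 of 9 lay above 0 in SST (median 1.05, all genes -0.02) and 7 of 7 in PVALB cells (0.68, all genes -0.01). In oligodendrocytes it was 4 of 7 (0.33, all genes 0.04). These tallies carry no p.

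Within a replicate, null can be set against WT of the same number and region. In replicate 2 of cortex, Fos was lower in null by log2 -2.30 in SST, -2.1 in PVALB and -2.26 in NGFC cells, and by -2.79 in oligodendrocytes; the same 2 libraries give -3.50, -4.22 and -3.96 for Fosb in SST, PVALB and NGFC cells, and in oligodendrocytes they held 0.275 CPM (2 UMIs) against 15.7. Replicate 1 of cortex gives 0.00 and -0.01 for Fos in SST and PVALB cells. In hippocampus replicates 1 and 2, Fos was -1.78 and -0.82 in SST, 0.23 and -1.26 in PVALB and -0.49 and 0.07 in NGFC cells, and in oligodendrocytes of replicate 2 it was -0.89. Npas4 in SST cells of replicate 2 was -2.69 in cortex and -0.28 in hippocampus, and replicate 1 holds too few UMIs for a ratio. Jun in SST cells was -1.09 and -1.50 in cortex, 0.09 and -1.0 in hippocampus. In the same order Egr1 was -2.63, -1.31, -1.12 and -0.85 in PVALB cells and -1.39, -1.86, -0.22 and -1.35 in oligodendrocytes. The replicate 1 values of both classes rest on few UMIs. In PVALB cells, null held 0 against 5.21 CPM in WT for cortex and 2.16 against 5.85 for hippocampus. For oligodendrocytes it was 0 against 1.62 and 0 against 0.165 CPM. The direction in these 2 classes is thus read from replicate 2 alone, where Egr1 was lower in null in both regions. In SST cells Egr1 was 1.33, -1.65, -1.73 and -1.10. Other members went both ways. Junb in replicate 2 was -1.52 in SST cells of cortex but 0.82 in hippocampus, where NGFC cells had 1.82. In SST cells Nr4a1 was 1.32, -0.89, -0.26 and 1.35, and Arc 1.90, -1.56, 0.86 and 0.14. Of the member values given here the largest come from null cortex replicate 2. In that library Fos and Fosb were lower than in WT in oligodendrocytes as well as neurons. In replicate 2 of hippocampus Fosb was also lower in null, by -1.67 in SST, -1.97 in PVALB and -1.17 in NGFC cells and -2.41 in oligodendrocytes. In each region and replicate, 1 pair of libraries cannot tell genotype from library, and no p is given for these pairs. Grin1 was -1.99 and -3.17 in cortex and -2.17 and -3.00 in hippocampus, lower in 4 of 4 pairs.

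A further test takes the change of oligodendrocytes in the same libraries out of that of the interneurons. In edgeR 0 genes passed in cortex SST (0%; 826 at unadjusted p under 0.05) and hippocampal NGFC cells (0%; 392). In hippocampus SST 2 passed (0.0151%), in cortex PVALB 14 (0.110%) and in hippocampus PVALB 5 (0.0392%); DESeq2 called 0 in each. These counts are unstable: with 1 library left out they span 0 to 12, 0 to 73 and 1 to 30, those at 0 span 0 to 45 (cortex SST) and 0 to 21 (NGFC), and with library-size scaling the 3 counts above are 0, 12 and 0. No member passed. Fos was -0.99 (SE 0.88) in cortex SST, -1.03 (SE 0.84) in hippocampus SST and 0.02 (SE 0.90) in NGFC cells. The member with the smallest adjusted p was Junb in cortex PVALB, at -1.79 (SE 0.53, adjusted p = 0.121). This rests on single libraries: without WT cortex replicate 2 Junb was -3.88 (adjusted p = 6.83e-05) and Fos -3.57 (adjusted p = 1.52e-04) in cortex PVALB, and without WT hippocampus replicate 2 Junb was -3.74 (adjusted p = 5.56e-05) and Egr1 -4.11 (adjusted p = 0.0047) in hippocampus SST. Without the latter library Junb also passed in cortex SST (-2.21), cortex PVALB (-1.77) and hippocampus NGFC (-2.69), Fos in hippocampus PVALB (-3.50) and Jun in hippocampus NGFC (1.85). Leaving out a WT library of replicate 2 leaves its null partner in, so the contrast then sets null replicate 2 against WT replicates 1 and 3 in part.

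WT hippocampus was compared with WT cortex over 3 libraries each. In SST cells 6 of 11902 genes passed (0.0504%; DESeq2 149), in PVALB 3 of 9018 (0.0333%; DESeq2 26), in NGFC 0 of 7697 (0%; 198 at unadjusted p under 0.05 in edgeR; DESeq2 5) and in oligodendrocytes 0 of 9802 (0%; 222; DESeq2 5). With 1 library left out SST cells gave 0 to 6 and PVALB cells 0 to 3. With the replicate number as a block 303, 58, 4 and 51 genes passed. No member passed in any of these. Fos in SST cells was 0.26 (SE 1.19), Junb -0.83 (SE 0.70) and Nr4a1 -0.93 (SE 0.49, adjusted p = 0.804). In oligodendrocytes Arnt2 was -0.89 (SE 0.35), with 17.9 to 39.6 CPM in cortex and 11.7 to 19.5 in hippocampus. The groups overlap, but hippocampus was lower in 3 of 3 replicates, and with the replicate block the change was -0.87 (SE 0.21, adjusted p = 0.0504), which does not pass.

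In single cells, the share with a Fos UMI among SST cells thinned to 1000 UMIs was 2.12, 18.8 and 4.88% in WT cortex, 0.683, 21.0 and 1.87% in WT hippocampus, 2.50 and 3.78% in null cortex and 0 and 13.5% in null hippocampus. In oligodendrocytes it was 0, 12.3 and 0.233%, then 0, 15.4 and 0.140%, then 0 and 2.76%, and 0 and 9.95%. Unthinned, SST cells ranged from 4.40 to 52.3% and oligodendrocytes from 0 to 28.1%; in WT hippocampus replicate 2 the shares were 39.4 and 21.0% at median depths of 2075 and 1480 UMIs, and in null hippocampus replicate 2 they were 52.3 and 28.1% at 14947 and 8250 UMIs. Thinning brings SST cells and oligodendrocytes of replicate 2 closer, and the order SST above oligodendrocytes remains in each of these. Sst, which oligodendrocytes should lack, was seen in 0 to 11.3% of thinned oligodendrocytes (3.66 to 42.0% unthinned) against 75.9 to 95.9% of thinned SST cells. Npas4 was seen in 0 to 3.32% of thinned SST cells (0 to 21.8% unthinned) and in at most 0.158% of thinned oligodendrocytes (0.462% unthinned). Of thinned astrocytes 49.3% had a Fos UMI in null hippocampus and 14.3% in null cortex replicate 2, against 0 to 7.14% in replicates 1 and 3.

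Members were also seen together in single cells. After thinning, cells with a Fos UMI more often had an Egr1 UMI than cells without one in 17 of 17 class and library sets with enough cells, and Fosb in 9 of 9, Jun in 17 of 19, Junb in 15 of 17 and Npas4 in 5 of 6. For Arnt2 this held in 5 of 18. In oligodendrocytes of WT hippocampus replicate 2, 45.9% of Fos-positive and 7.33% of Fos-negative cells had an Egr1 UMI; in SST cells of that library it was 31.7% and 13.9%. In null hippocampus replicate 2 it was 34.0% and 3.32% of oligodendrocytes and 19.4% and 8.96% of SST cells. For Npas4 in SST cells of null hippocampus replicate 2 the shares were 8.33% and 1.88%. Over all pairs of members in oligodendrocytes 43 of 72 were higher, with 7 of 15 in WT cortex and 8 of 15 in null cortex replicate 2, and Fos with Arc was higher in 3 of 5 sets. Cells of a set share a library, and no p is given.

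Other lists of genes put the members in context. Over all genes tested 61.5% passed between SST cells and oligodendrocytes in cortex and 62.0% in hippocampus. Of 34 other rapid response genes, 10 were higher and 4 lower in cortex SST than in oligodendrocytes among 31 tested (median 0.75), and 13 and 8 in hippocampus SST (0.30); with library-size scaling these are 16 and 4, and 15 and 4. In cortex SST, Plk2 (4.99, SE 0.38, adjusted p = 1.05e-12), Rheb (1.91, SE 0.17) and Rgs2 (3.29, SE 0.32) were higher and Plk3 (-3.03, SE 0.23) lower. The sum of the list was 1076, 1148 and 1024 CPM in SST cells of WT cortex and 1114, 902 and 969 in WT hippocampus, with Rheb the most abundant at a mean of 506 CPM in SST cells, so the sum can hardly show what the other genes of the list did. In oligodendrocytes it was 377, 595 and 373 CPM in WT cortex and 405, 612 and 415 in WT hippocampus.

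Delayed activity-regulated genes, many of them effectors typical of neurons, were higher in SST cells: 11 of 12 tested in cortex (median 6.0) and 11 of 12 in hippocampus (7.07), with 0 lower. Vgf (6.44, SE 0.31, adjusted p = 4.14e-17), Scg2 (5.67, SE 0.31), Crh (7.19) and Penk (8.74) are examples in cortex. In SST cells the list summed to 1265, 1803 and 1679 CPM in WT cortex and 1002, 1481 and 1396 in WT hippocampus, where replicates 2 and 3 stand together above replicate 1. Replicate 1 was made with the earlier chemistry in both genotypes, and whether that plays a part was not tested. Null cortex had 1539 and 1607 CPM, within the range of WT cortex. Null hippocampus had 1559 and 1508, above the 3 WT hippocampus libraries; between genotypes there 10 of 12 genes tested lay above 0 (median 0.60, all genes -0.04) and 0 passed in edgeR (DESeq2 called 2 of all genes).

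Of the upstream regulators 15 were higher and 6 lower in cortex SST among 26 tested (median 1.02; 17 and 3 with library-size scaling), with Mef2c (5.09, SE 0.29), Camk2b (4.81, SE 0.31), Camk4 (5.11, SE 0.33) and Camk2g (3.43, SE 0.24) the clearest. The 14 heat-shock genes were split, 3 higher and 3 lower of 13 (median -0.18), with Hspa1b (-2.14, SE 0.27, adjusted p = 6.73e-08) and Bag3 (-2.76, SE 0.35) lower and Hsph1 (1.0, SE 0.20) and Hspe1 (0.81, SE 0.17) higher; library-size scaling makes it 5 and 2. Summed, the heat-shock list held 5703, 6314 and 7340 CPM in SST cells of WT cortex, led by Hsp90ab1, and the higher Hspa1a of replicate 2 does not show in the sum. In the 5 other comparisons with oligodendrocytes the medians were 0.30 to 1.27 for rapid response, 4.30 to 7.07 for delayed genes, 0.30 to 0.80 for regulators and -0.53 to -0.04 for heat-shock genes. No gene of the 4 lists passed in edgeR between null and WT, between regions or in the tests of a difference.

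Over the 39 sums of library and class of the interneurons and oligodendrocytes, the genes whose levels went most closely with the mean of the 9 members other than Arnt2 were Hspa1b (Pearson r 0.887), Gm22714 (0.850), Gadd45b (0.846), Phip (0.826) and Zfp292 (0.821) among 8984 genes. For Arnt2 they were Sirpa (0.963), Ptprm (0.956), Arrb1 (0.955), Syp (0.954) and Hint1 (0.954). The lists depend on the measure: by Spearman correlation the 5 for the members rank 8, 7, 2, 20 and 4, and the 5 for Arnt2 rank 70, 624, 78, 346 and 148. Among members Fos went with Junb (0.929), Egr1 (0.928), Fosb (0.851) and Npas4 (0.734), less with Jun (0.549), and hardly with Arc (0.178); Arc and Arnt2 were opposed (-0.591). Spearman values were 0.911, 0.946, 0.889, 0.750, 0.628, 0.301 and -0.330 in the same order. These sums share libraries and cell classes, so the values describe the pattern and carry no p.

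The promoters of 7 members were read from the RefSeq annotation on GRCm38.p6, from 250 bases before to 50 bases after the start of transcription; Egr1, Egr3 and Arc were not among the promoters available. On either strand, the CRE core TGACG (or CGTCA) occurs in 5 of 7: Fos at -129 and -66, Fosb at -60, Junb at -106, Nr4a1 at -233, -213, -69 and -40, and Npas4 at -179 and -169. It occurs in 20.8% of 32851 promoters read the same way. The full site TGACGTCA occurs in 0 of 7 (1.79% of all promoters), the AP-1 site TGACTCA in 0 (5.20%), an EGR site, GCGTGGGCG or GCGGGGGCG, in 2, Fosb at -50 and Nr4a1 at -60 (3.47%), and the CArG box in 0 (1.63%). A match is a description of sequence and not a sign of binding. Sequences are given in the direction of transcription with motifs in capitals, from chromosome 12:85473640-85473939 (+) for Fos, 7:19309996-19310295 (-) for Fosb, 8:84978699-84978998 (-) for Junb, 15:101266596-101266895 (+) for Nr4a1, 19:4989922-4990221 (-) for Npas4 and 7:84409989-84410288 (-) for Arnt2, in which none of these motifs occurs.
Fos: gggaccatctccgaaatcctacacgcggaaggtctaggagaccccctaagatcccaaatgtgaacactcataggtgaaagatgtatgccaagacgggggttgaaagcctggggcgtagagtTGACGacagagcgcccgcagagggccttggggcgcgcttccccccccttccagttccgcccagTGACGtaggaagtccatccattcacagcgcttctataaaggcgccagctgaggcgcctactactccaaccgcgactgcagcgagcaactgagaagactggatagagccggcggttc
Fosb: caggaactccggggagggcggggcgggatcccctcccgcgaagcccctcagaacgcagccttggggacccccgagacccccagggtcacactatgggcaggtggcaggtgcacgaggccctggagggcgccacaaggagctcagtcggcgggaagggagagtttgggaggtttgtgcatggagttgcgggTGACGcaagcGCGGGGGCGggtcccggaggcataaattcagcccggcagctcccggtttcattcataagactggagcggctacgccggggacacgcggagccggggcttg
Junb: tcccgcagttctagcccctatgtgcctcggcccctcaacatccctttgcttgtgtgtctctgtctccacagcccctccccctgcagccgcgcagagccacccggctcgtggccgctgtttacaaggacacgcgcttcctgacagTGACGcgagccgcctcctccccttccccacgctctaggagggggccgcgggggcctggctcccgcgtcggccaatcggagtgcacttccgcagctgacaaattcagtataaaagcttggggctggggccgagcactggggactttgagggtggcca
Nr4a1: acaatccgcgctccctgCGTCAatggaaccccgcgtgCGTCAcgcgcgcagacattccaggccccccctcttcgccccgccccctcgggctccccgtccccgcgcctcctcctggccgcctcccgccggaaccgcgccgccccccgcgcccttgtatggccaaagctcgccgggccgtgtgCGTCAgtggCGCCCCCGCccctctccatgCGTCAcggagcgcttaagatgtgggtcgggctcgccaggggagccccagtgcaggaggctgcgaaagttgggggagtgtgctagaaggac
Npas4: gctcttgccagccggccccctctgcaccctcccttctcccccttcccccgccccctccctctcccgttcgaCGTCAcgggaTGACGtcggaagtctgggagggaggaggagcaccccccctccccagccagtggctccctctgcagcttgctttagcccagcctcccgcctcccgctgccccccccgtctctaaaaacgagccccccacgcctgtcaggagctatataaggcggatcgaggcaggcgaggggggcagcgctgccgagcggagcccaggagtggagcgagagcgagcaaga
Arnt2: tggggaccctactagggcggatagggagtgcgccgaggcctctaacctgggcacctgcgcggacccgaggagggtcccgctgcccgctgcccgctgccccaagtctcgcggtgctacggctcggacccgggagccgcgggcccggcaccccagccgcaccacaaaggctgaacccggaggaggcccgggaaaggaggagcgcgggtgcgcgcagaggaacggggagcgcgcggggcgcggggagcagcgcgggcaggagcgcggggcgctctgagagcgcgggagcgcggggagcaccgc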

How the data were processed

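Nkx2.1-Cre; Ai14 cells of 10 libraries were analysed: 3 WT cortex, 3 WT hippocampus, 2 null cortex and 2 null hippocampus. The deposited matrices hold UMI counts per gene and cell, which the authors made from 10x libraries (v2 chemistry in replicate 1, v3 in replicates 2 and 3) on mm10 with extended gene ends; the labels name Cell Ranger 2.1.1 and the matrix headers version 3.0.2. Replicates were identified by barcode suffix from the cell numbers in the methods. Replicate numbers pair samples: over genes, WT cortex and hippocampus deviations of the same number correlated at 0.181 to 0.860 and each was highest with its own number (7296 to 8806 genes, which are not independent; replicate 1 also differs in chemistry).

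Cells were kept if they had 200 to 6000 genes and less than 30% of UMIs from mitochondria, then integrated and clustered in Seurat 5.3.0 (2000 features without members and listed genes, 25 dimensions, resolution 1.0, 33 clusters; R 4.3.3), and classes named by fixed marker lists; the SST class includes cluster 21 (TH). UMIs were summed per library and class with at least 10 cells and tested in edgeR 4.0.16 (quasi-likelihood, TMM, filterByExpr; limma 3.58.1 loaded), all tests two-sided. A gene passed at adjusted p under 0.01 (Benjamini-Hochberg over all genes tested) together with a change no smaller than 0.1 on the natural-log scale (log2 0.144). Levels in CPM (UMIs scaled to the total of the sum) and within-replicate log2 values use all UMIs, the latter with a pseudocount of 1. Shares used cells thinned to 1000 UMIs (22580 cells; 2608 cells below that were left out). Co-detection used sets with at least 50 cells and 10 cells with a UMI. Correlations used genes with a mean of at least 10 CPM. Other steps ran in Python 3.11.15 with scanpy 1.11.5, pandas 2.3.3, scipy 1.17.1 and numpy 2.4.6, and DESeq2 1.42.0 as an alternative.

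The members and lists were chosen with earlier results of these data known. Genes named are the 10 members, Grin1, up to 4 called genes with the smallest p and the 2 most abundant of each list (other rapid response, delayed activity-regulated, upstream regulators with 27 of 29 found, heat-shock), and the 5 most correlated genes.

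Limits: no replicate 3 exists for null mice, so null and WT differ in the replicates they hold. Replicate 2 differs from the others in the members themselves. The methods name several animals per genotype, of both sexes, and the files do not say which of them each library holds. Classes other than SST, PVALB, NGFC and OLIGO are described without a test. Free RNA was not removed. Members of low count, Egr3 above all, are limited by depth: a count of 0 allows up to 3 counts.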

Additional observations from a re-analysis of the deposited data

How the results depend on the processing

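Alternatives were the adjusted p threshold of 0.05, DESeq2, library-size scaling, no filter on low counts, a replicate block, only the groups compared, sums of at least 20 cells, stricter cell filters, Scrublet doublets removed, clusters without integration, classes of single cells by their own markers, members kept among the variable features, and each library left out in turn; replicates 1 and 3 alone were added after seeing the data. No called result reversed. Without WT hippocampus replicate 2, Egr1 against oligodendrocytes changed direction and passed, from -0.58 to 3.06 in hippocampus PVALB and from -0.28 to 2.18 in hippocampus NGFC. Of 1118 alternative log2 changes of interneurons against oligodendrocytes, 998 kept direction and side of the threshold, 70 gained and 30 lost a call in the same direction, and 20 that were not called changed direction, which include the 2 for Egr1. Of 1148 null against WT, 1056 kept both, 3 gained a call in the same direction and 89 that were not called changed direction.

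With no filter on low counts the members called became 1 in null against WT for cortex SST (Fosb, -2.73, adjusted p = 0.00407), cortex PVALB (Fosb, -3.47) and hippocampus NGFC (Junb, 2.07), and 1 for cortex SST after taking out the change of oligodendrocytes (Junb, -2.28). DESeq2 gave 4 members in cortex PVALB against oligodendrocytes, and library-size scaling 8 in hippocampus NGFC. The cause was not tested. With the replicate block no member was called in any comparison of genotype or region.

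Leaving out 1 library gave 4 to 8 members in WT hippocampus SST and 4 to 8 in WT hippocampus NGFC against oligodendrocytes. With the change of oligodendrocytes taken out it gave 0 to 1 in cortex SST, 0 to 2 in hippocampus SST, 0 to 2 in cortex PVALB, 0 to 1 in hippocampus PVALB and 0 to 2 in hippocampus NGFC; without WT hippocampus replicate 2 these include Fos in PVALB (-3.50) and Junb (-2.69) and Jun (1.85) in NGFC cells. Where a group was left with 1 library, it was assumed to vary like the others.

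Sums of at least 20 cells could not be fitted for cortex SST and PVALB with the change of oligodendrocytes taken out, nor for oligodendrocytes in cortex by genotype or their interaction. Depth limits Egr3 in all classes, Npas4 in oligodendrocytes, and Fosb and Arc in interneurons of replicates 1 and 3.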
